A study of Mus musculus with 6 samples.

Results

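Odontoblasts line the pulp of a tooth and secrete dentin. The 9 genes described here code for proteins of odontoblasts and of the mineralized matrices of dentin and bone: Dspp, Dmp1, Ibsp and Spp1 (acidic matrix phosphoproteins), Bglap and Bglap2 (copies of osteocalcin), Phex (a membrane endopeptidase), Smpd3 (neutral sphingomyelinase 2) and Nes (nestin). They were chosen as a list of gene names, and all 9 were found among the 19060 genes of the deposited table. The samples were proximal ends of incisors from mice of 1 month of age, collected 1 week after tamoxifen and sequenced as bulk RNA. The 3 control samples came from Fgfr1fl/fl mice, which carry floxed Fgfr1 alleles without Cre and which a label calls wild type, and the 3 mutant samples came from Gli1-Cre;Fgfr1fl/fl mice, in which a tamoxifen-inducible Cre at Gli1, a gene active in the mesenchymal stem cells of the proximal incisor and in some epithelial cells, removes the FGF receptor gene Fgfr1. The comparison therefore asks how the genes of differentiated dentin-forming cells stood 1 week after Fgfr1 was deleted in Gli1+ cells, and in their descendants. No source states that the 3 samples of a group are 3 animals, so p-values measure the spread between these samples, which may be in part technical.

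Dentin mineralizes outside the cell. Odontoblasts lay down type I collagen and add acidic, heavily phosphorylated glycoproteins of the SIBLING family, which bind calcium and hydroxyapatite. Dentin sialophosphoprotein (Dspp) is the most abundant of them in dentin, dentin matrix protein 1 (Dmp1) is shared by odontoblasts and osteocytes, and bone sialoprotein (Ibsp) and osteopontin (Spp1) are better known from bone. Osteocalcin is a small protein of mineralized matrix whose glutamates are carboxylated with the help of vitamin K. Phex holds down FGF23 and the accumulation of acidic mineralization-inhibiting peptides, Smpd3 cleaves sphingomyelin to ceramide and phosphocholine and is needed for normal mineralization, and nestin is an intermediate filament protein used as a marker of mature odontoblasts.

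The 9 genes lie at 5 places in the mouse genome (build GRCm38, the same assembly as mm10; GENCODE M21 gene models, all protein coding). Dspp (chr5:104170712-104180127), Dmp1 (chr5:104202613-104214102), Ibsp (chr5:104299171-104311469) and Spp1 (chr5:104435118-104441050) are neighbours on the plus strand, with the related gene Mepe between Ibsp and Spp1, in a stretch of 270.3 kb. Bglap (chr3:88383501-88384464) and Bglap2 (chr3:88377736-88378699) lie on the minus strand with a further copy, Bglap3 (chr3:88368616-88372743), in 15.85 kb. Nes (chr3:87971078-87980451, plus strand) is on the same chromosome, Smpd3 (chr8:106252548-106337988) and Phex (chrX:157162075-157415312) are both on the minus strand.

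The osteocalcin copies are so alike that their coding sequences matter for reading their counts. They are given 5′ to 3′ from start to stop codon, with capitals in Bglap2 and Bglap3 where they differ from Bglap, and in Bglap where Bglap2 differs from it:
Bglap: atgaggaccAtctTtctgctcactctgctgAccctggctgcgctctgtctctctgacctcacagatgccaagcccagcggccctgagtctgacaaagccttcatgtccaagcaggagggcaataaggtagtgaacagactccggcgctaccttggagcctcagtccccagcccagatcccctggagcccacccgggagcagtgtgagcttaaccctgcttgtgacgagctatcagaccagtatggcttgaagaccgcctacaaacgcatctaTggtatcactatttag
Bglap2: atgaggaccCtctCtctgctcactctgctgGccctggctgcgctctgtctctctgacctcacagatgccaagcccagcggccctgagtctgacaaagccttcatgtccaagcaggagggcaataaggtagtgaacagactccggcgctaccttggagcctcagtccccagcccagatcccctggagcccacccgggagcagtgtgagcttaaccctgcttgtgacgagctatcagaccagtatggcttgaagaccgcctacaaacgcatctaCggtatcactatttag
Bglap3: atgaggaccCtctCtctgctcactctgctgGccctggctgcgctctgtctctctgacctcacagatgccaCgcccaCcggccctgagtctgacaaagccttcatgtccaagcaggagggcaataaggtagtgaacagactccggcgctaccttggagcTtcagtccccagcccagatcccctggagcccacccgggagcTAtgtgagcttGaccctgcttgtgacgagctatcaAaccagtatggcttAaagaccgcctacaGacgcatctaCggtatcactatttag
Each coding sequence has 288 bases. Bglap2 differed from Bglap at 4 bases (A10C, T14C, A31G and T273C, counted from 1 at the start codon, the Bglap base written first), an identity of 98.6%, and Bglap3 differed at 13 bases, an identity of 95.5%. Reads were 75 bases long and single. Of the 366 windows of that length in the Bglap transcript, 66.1% occurred letter for letter in Bglap2, and of the 397 windows in Bglap2, 61.0% occurred in Bglap. A read from most of either transcript therefore has more than a single home, and the split of counts between Bglap and Bglap2 is uncertain. Bglap3 shared few windows with Bglap, 11 in all, or 3.01% of the Bglap windows and 0.556% of the 1977 windows of its own longer transcript. It shared more with Bglap2, 60 in all, or 15.1% of the Bglap2 windows and 3.03% of its own.

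RefSeq promoters (GRCm38.p6) were on hand for 6 of the 9 genes. Those of the 3 phosphoprotein genes of the chromosome 5 group that had an entry are shown to compare these neighbours, and each is the 100 bases before the RefSeq transcription start nearest to the gene start given above, on the plus strand:
Dmp1, chr5:104202517-104202616: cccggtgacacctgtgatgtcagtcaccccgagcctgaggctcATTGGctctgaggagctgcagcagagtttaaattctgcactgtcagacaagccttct
Ibsp, chr5:104299187-104299286: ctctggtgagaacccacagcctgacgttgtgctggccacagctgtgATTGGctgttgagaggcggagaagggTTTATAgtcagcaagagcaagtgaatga
Spp1, chr5:104435011-104435110: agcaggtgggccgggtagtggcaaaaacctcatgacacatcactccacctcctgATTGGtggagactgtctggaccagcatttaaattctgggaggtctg
Capitals mark matches on either strand to the CCAAT box (its own 5 letters, bound by NF-Y) and to the TATA box (letters TATAAA). All 3 windows held 1 CCAAT box on the reverse strand, beginning 57 bases before the start in Dmp1, 54 in Ibsp and 46 in Spp1, and the Ibsp window also held a TATA box on the reverse strand at 28 bases. Dmp1 and Spp1 each had a window at another RefSeq start (chr5:104197475-104197574 and chr5:104436092-104436191, not shown), and neither held a match to these sequences. The Bglap window, on chromosome 3 and not shown, also held a CCAAT box (at 90 bases) and a TATA box (at 27 bases). Those of Nes and Phex held neither. Of 32851 promoters of the same length, 18.9% held a CCAAT box and 5.56% a TATA box. A RUNX sequence (letters AACCACA), held by 1.75% of all promoters, was in none of the windows of the 6 genes, which says only that these letters are not there.

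Depth differed between the groups and cannot be told apart from genotype: the controls held 31060222 to 32712448 counts and the mutants 5276557 to 11819576. Fgfr1, the targeted gene, read 529, 924 and 434 scaled CPM in the controls and 148, 318 and 262 in the mutants (log2 fold change -1.37, SE 0.40, adjusted p = 0.088), with no overlap between groups. Scaled CPM (counts-per-million) are counts divided by the library total and rescaled by its upper quartile, and log2 fold changes, 95% intervals and p-values come from edgeR's quasi-likelihood test across 15826 genes, Benjamini-Hochberg adjusted over all of them. Among the other cells in the tissue, the summed level of 7 ameloblast genes, led by Amelx and Ambn, ranged from 85937 to 120405 in controls and from 34717 to 74834 in mutants. These markers did not move together: Amelx and Ambn, which make up most of the sum, had log2 fold changes of -1.23 and -1.13 and did not pass the study's threshold, whereas Odam (1.76) and Amtn (0.91) were higher by it, and 0 of the 7 were lower. The summed levels of erythroid genes (6 genes; 379.6 to 823 in controls, 926 to 2559 in mutants), endothelial genes (7 genes; 205 to 349 against 169.9 to 203) and dental epithelium genes (6 genes; 1654 to 3398 against 1547 to 1635) did not overlap between the groups either, and their part in the results below was not tested. The erythroid genes did not move together: Hbb-bs (log2 fold change 1.81) and Hba-a2 (1.36) were higher by the study's threshold, and Hba-a1 (-2.04) was lower. No endothelial or dental epithelium gene passed it. The medians of those lists were -0.31 and -0.43, with Emcn (0.05), Cldn5 (0.23) and Epcam (0.58) above 0. The sum of 7 skeletal muscle genes was 8.56, 2569 and 26.4 in controls 1, 2 and 3 and 5520, 129 and 904 in mutants 1, 2 and 3, so control 2 and mutant 1 stood out for Ckm, Acta1 and Mylpf. Of 9 odontoblast markers (the members Dspp, Dmp1, Phex, Smpd3 and Nes among them), Mepe alone was near 0 (13, 76 and 11 counts in controls, 0, 14 and 0 in mutants) and was not tested. In bulk tissue, fewer cells of a type and less RNA per cell cannot be told apart.

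Smpd3 was lower in the mutant incisors, and no other gene of the 9 passed the study's threshold of an unadjusted p under 0.05 with more than 1.5-fold. Across all genes tested, 8.92% were lower and 10.9% were higher at that threshold, and 6.79% had an adjusted p under 0.05 in either direction. The 9 genes gave 1 lower, 0 higher and 0 with an adjusted p under 0.05, so that 1 lower gene of 9 stands near the background. At an unadjusted p under 0.05 there was likewise 1. Their median log2 fold change was 0.22, beside -0.04 over all genes tested, with 5 values above 0 and 4 below. In 1 of the 9, Smpd3, all mutant samples lay below all controls, as in 16.3% of all genes, and in none did all mutant samples lie above, as in 14.1%.

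**Figure D1:**
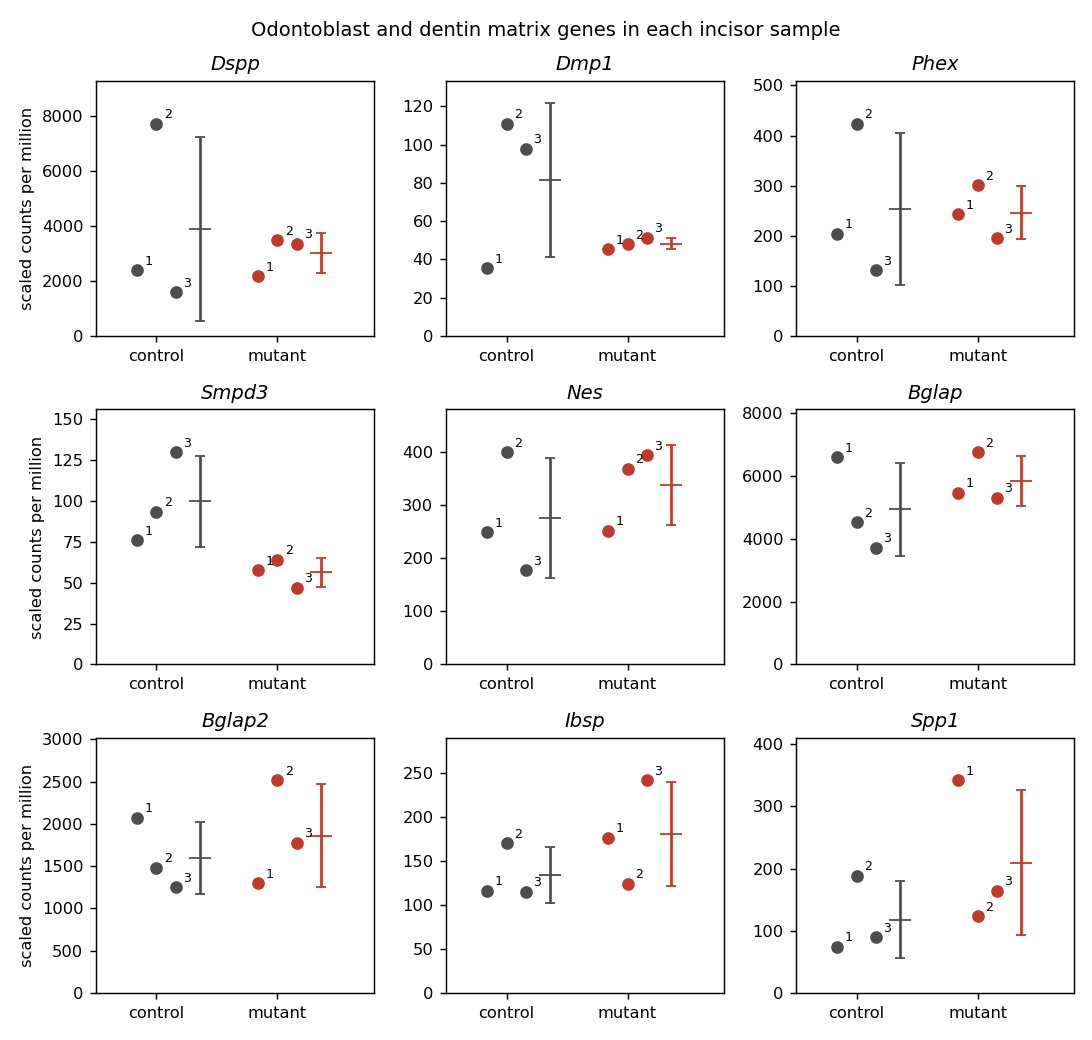
Level of each gene (scaled CPM, vertical axis from 0) in the 3 control and 3 mutant samples, with sample numbers beside the points and the mean and SD as a bar to the right. Smpd3 is the gene whose groups do not overlap, and control 2 is the highest of all 6 samples for Dspp, Dmp1, Phex and Nes.

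Levels per transcript length were the osteocalcins far above Dspp and Dspp far above the rest. In controls, Bglap stood at 11234 ± 3367 scaled CPM per kb (SD, n = 3), Bglap2 at 3396 ± 902 and Dspp at 882 ± 755. These 3 did not overlap with their neighbours in order in either group. After them came Spp1 (77.9 ± 40.9), Ibsp (64.6 ± 15.3), Nes (45.0 ± 18.5), Phex (40.4 ± 24.3), Dmp1 (29.5 ± 14.6) and Smpd3 (19.4 ± 5.37), and the control samples of each of these genes overlapped with those of the next. In the mutants the order below Dspp had gaps, since Dmp1 (17.5 ± 1.09) lay below every Phex sample and above every Smpd3 sample (10.9 ± 1.70). Without length, the 9 genes together took 0.772% to 1.77% of the counts of a control library and 0.873% to 1.37% of a mutant library. Osteocalcin transcripts are short, 440 and 471 bases for Bglap and Bglap2 against 4431 for Dspp, so the order per kb leans on the annotated lengths.

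**Figure D2:**
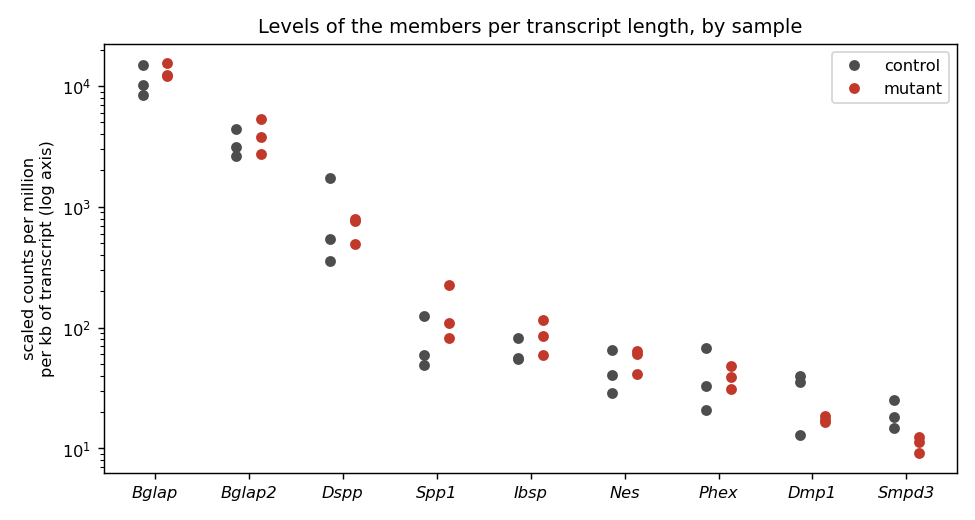
Level per kb of transcript (log axis) of each gene in every sample, ordered by the control mean, controls in grey and mutants in red. Bglap, Bglap2 and Dspp stand apart from each other and from the remaining 6 genes, which run together in controls from 77.9 down to 19.4.

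Dspp, the principal phosphoprotein of dentin, did not pass the test. It read 2388, 7742 and 1589.8 scaled CPM in controls 1, 2 and 3 and 2181, 3498 and 3359 in mutants 1, 2 and 3. Control 2 lay far above the other 5 samples, and the mutant samples fell between the control extremes. Mutant and control differed by -0.37 on the log2 scale (SE 0.60, 95% interval -1.76 to 1.01, adjusted p = 0.809), a range that holds differences over 1.5-fold in both directions. Control 2 set the sign: without it the difference was 0.60 (adjusted p = 0.454). In controls the highest sample was 4.87 times the lowest, in mutants 1.60 times.

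Dmp1, which binds calcium and is a nucleator of mineral in dentin and bone, read 35.5, 111 and 97.9 in the controls and 45.4, 48.0 and 51.4 in the mutants. The mutants lay close together, below controls 2 and 3 and above control 1, so the groups overlapped. The log2 fold change was -0.76 (SE 0.40, 95% interval -1.67 to 0.16, adjusted p = 0.347), which did not pass. Without control 1 it was -1.12 (adjusted p = 0.092), past the study's threshold, and without control 2 it was -0.47 (adjusted p = 0.752).

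Dspp and Dmp1 did not vary together across samples. Control 3 had the lowest Dspp of all 6 samples and the second highest Dmp1, giving 16.2 Dspp counts per Dmp1 count, whereas the other controls had 67.2 and 69.7. The mutants had 48.0, 72.9 and 65.4, of which 72.9 in mutant 2 was above every control, and the group means (51.0 ± 30.2 and 62.1 ± 12.7) were not told apart (exact permutation test, two-sided, p = 0.70, n = 3 a group, where 0.10 is the smallest p possible).

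Ibsp, a marker of mineralizing matrix in bone and cementum, read 116, 170.2 and 115 in the controls and 176, 124 and 241 in the mutants. Mutants 1 and 3 exceeded every control and mutant 2 did not. The log2 fold change was 0.43 (SE 0.31, 95% interval -0.28 to 1.14, adjusted p = 0.512).

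Spp1, made by osteoblasts, osteoclasts and macrophages besides dental cells, read 74.3, 188 and 89.9 in the controls and 342, 123 and 164 in the mutants. Mutant 1 was the highest, and control 2 exceeded the other 2 mutants. The log2 fold change of 0.83 (SE 0.48, 95% interval -0.26 to 1.93, adjusted p = 0.392) was the highest of the 9 genes and did not pass. Without control 2 it was 1.35 (past the study's threshold, adjusted p = 0.228), and without mutant 1 it was 0.27 (adjusted p = 0.739). Osteoclast markers moved in the same samples: the summed level of 8 of them was 196, 258 and 137 in the controls and 594, 150 and 383 in the mutants. Ctsk, the osteoclast collagenase cathepsin K, read 129, 129 and 73.6 against 311, 103 and 258. Oscar and Calcr, which define osteoclasts more strictly, read 11.1 and 8.73 in mutant 1 and under 0.5 in every other sample. Those mutant 1 values rest on 51 and 40 counts, and neither gene was tested. Dcstamp and Atp6v0d2 of the same list were also highest in mutant 1 (6.77 and 18.3). Ocstamp was instead highest in mutant 3, at 3.43, with 1.09 in mutant 1. The part of osteoclasts in the Spp1 values was not tested. Macrophage markers (8 genes, among them Cd68, Adgre1 and Csf1r) summed to 146 to 439 in controls and 300 to 486 in mutants. The osteoblast and osteocyte markers tested outside the 9 genes had log2 fold changes below 0. These were Alpl (-0.68), Sp7 (-0.45), Runx2 (-0.44), Dkk1 (-0.19) and Sost (-1.75). None of them passed the study's threshold, and the part of osteoblasts in the Spp1 values was not tested.

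**Figure D3:**
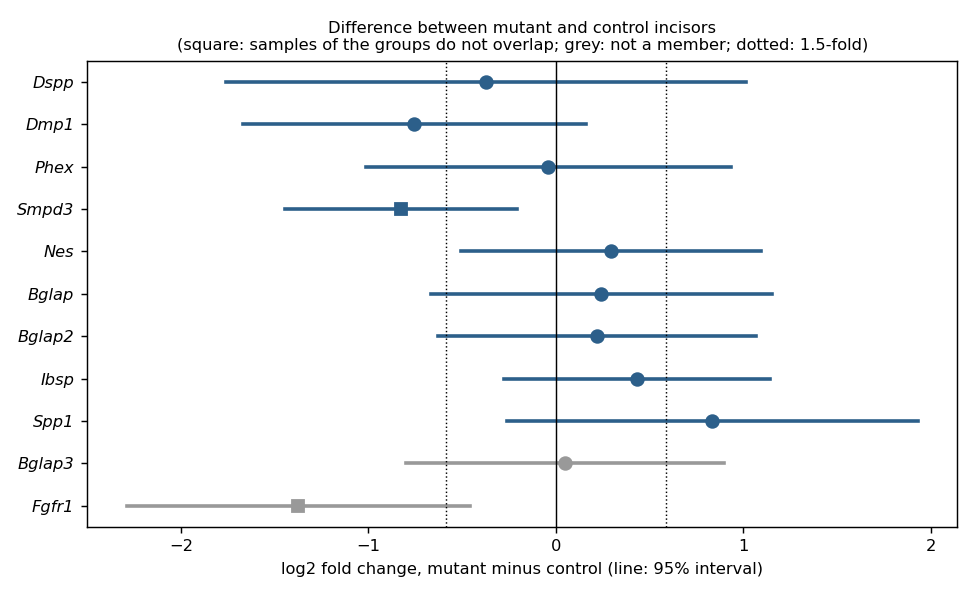
Log2 fold change of mutant against control with its 95% interval for the 9 genes and, in grey, Bglap3 and Fgfr1; dotted lines mark 1.5-fold and squares mark genes whose samples do not overlap between groups. Among the 9, the interval of Smpd3 (-1.45 to -0.21) is the one that leaves out 0.

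Bglap and Bglap2, the osteocalcin copies, did not pass the test. Bglap read 6590.2, 4518 and 3719.6 in controls and 5461, 6762 and 5311 in mutants, and the groups overlapped through control 1. Its log2 fold change was 0.24 (SE 0.40, 95% interval -0.67 to 1.15, adjusted p = 0.814). Bglap2 read 2071, 1480.1 and 1247 in controls and 1296, 2513 and 1777 in mutants, with mutant 1 near the bottom and mutant 2 at the top (log2 fold change 0.22, SE 0.37, 95% interval -0.63 to 1.07, adjusted p = 0.821). Bglap3, a copy better known from kidney and other tissues, was a small fraction of either, at 23.5 to 43.2 in controls and 24.3 to 46.3 in mutants (log2 fold change 0.05, SE 0.37, adjusted p = 0.965).

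The split between the near-identical copies stayed narrow in controls. Bglap took 76.1%, 75.3% and 74.9% of the joint Bglap and Bglap2 counts in controls 1, 2 and 3, and 80.8%, 72.9% and 74.9% in mutants 1, 2 and 3. The mean was 75.4% ± 0.606 in controls and 76.2% ± 4.11 in mutants (SD, n = 3), a difference of 0.784 percentage points that an exact permutation test did not tell from 0 (two-sided, p = 0.90). Mutant 1, the shallowest library, had the highest share, and without it the difference was -1.52 points. Since most 75-base windows are shared, this share rests on the few places where the copies differ and on how the counting assigned the rest. The sum of the 3 copies does not depend on how shared reads were split among them: it was 8705, 6028 and 4990.4 scaled CPM in controls and 6786, 9321 and 7112 in mutants (exact permutation p = 0.40).

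Phex, whose loss causes X-linked hypophosphatemia with poorly mineralized dentin, did not pass the test. It read 204, 424 and 132 in controls and 244, 300.5 and 195 in mutants, with the controls spread on both sides of every mutant. The log2 fold change was -0.04 (SE 0.42, 95% interval -1.01 to 0.93, adjusted p = 0.975), and without control 2 it was 0.55 (adjusted p = 0.475). The interval holds differences over 1.5-fold in both directions.

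Smpd3 read 75.9, 93.5 and 130.1 in controls and 57.8, 64.2 and 46.9 in mutants. Every mutant sample lay below every control sample, the nearest pair being mutant 2 at 64.2 and control 1 at 75.9. The level was 99.8 ± 27.6 in controls and 56.3 ± 8.78 in mutants (SD, n = 3), a log2 fold change of -0.83 (SE 0.27, 95% interval -1.45 to -0.21), or 0.564 of the control level. The adjusted p was 0.124, so the fall passed the study's threshold and not the adjusted one. It stayed negative in all 15 other fits, and lost the call without control 3 (-0.59, adjusted p = 0.484), without mutant 3 (-0.72, adjusted p = 0.209) and with a correction for length and GC (-0.18, adjusted p = 0.843).

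Nes read 249, 399.8 and 177 in controls and 252, 368 and 393 in mutants. Mutants 2 and 3 were near control 2 and mutant 1 near control 1. The log2 fold change was 0.29 (SE 0.35, 95% interval -0.51 to 1.09, adjusted p = 0.725). Without control 2 it was 0.66 (adjusted p = 0.344), and with the correction for length and GC it was 0.94 (adjusted p = 0.096), past the study's threshold.

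Control 2 weighed on several of the 9 genes at once. It was the highest of all 6 samples for Dspp, Dmp1, Phex and Nes, and the highest control for 6 of the 9, Ibsp and Spp1 included, whereas control 3 was the lowest of all samples for 6, Dspp, Phex, Nes, Bglap, Bglap2 and Ibsp. Control 2 was also the control with the most skeletal muscle transcripts, whose part in these values was not tested. Without control 2, 7 of the 9 differences were above 0, Smpd3 stayed lower (-0.87, adjusted p = 0.240) and Spp1 became higher.

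**Figure D4:**
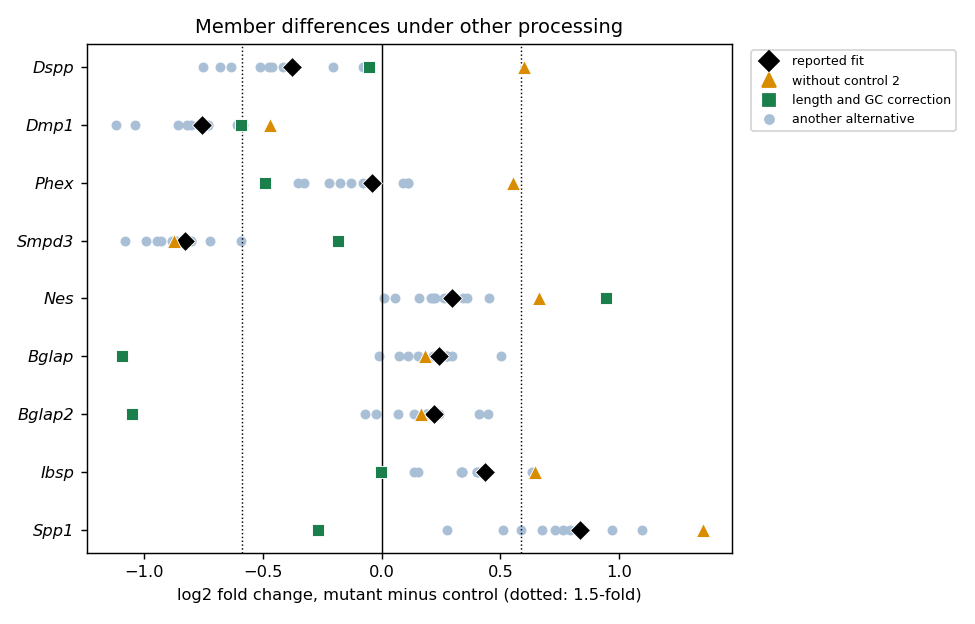
Log2 fold change of each gene in the reported fit (diamonds), without control 2 (triangles), with a length and GC correction (squares) and in the other alternatives (circles); dotted lines mark 1.5-fold. The triangles for Dspp, Dmp1, Phex, Nes, Ibsp and Spp1 lie to the right of the diamonds. The squares of Bglap, Bglap2 and Spp1 lie on the other side of 0, and that of Ibsp lies just past it, at -0.0024.

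The differences of all genes followed transcript length, and the 9 genes span most of that range. When 12332 protein-coding genes averaging 50 counts or more were sorted by length into 10 bins, the shortest bin (204 to 1325 bases) had a median log2 fold change of 0.68, the next 0.14 and the 8 longer bins between -0.28 and -0.09. Bglap and Bglap2, in the shortest bin, lay below its median at 0.24 and 0.22. Smpd3 (5148 bases) at -0.83 and Dspp (4431 bases) at -0.37 lay below the median of -0.26 of their bin. Nes (6126 bases) at 0.29 and Phex (6265 bases) at -0.04 lay above theirs, -0.28, and Spp1 (1507 bases) at 0.83 lay above 0.14. A fit that removed the trend with length and GC content put Bglap at -1.09 (adjusted p = 0.171) and Bglap2 at -1.05 (adjusted p = 0.277), both past the study's threshold. It moved Ibsp to 0.00 and Spp1 to -0.27. The transcripts of Bglap and Bglap2 lie at the short end of the lengths on which the trend was fitted. The part of length in the member differences was not tested beyond this fit.

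**Figure D5:**
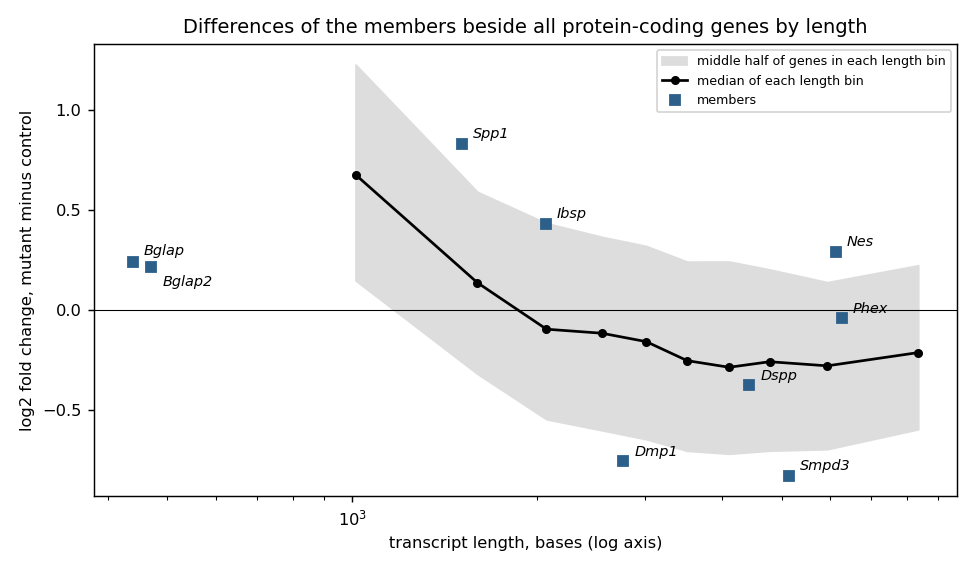
Log2 fold change against transcript length (log axis) for the 9 genes (squares), over the median and the middle range from the lower to the upper quartile of protein-coding genes in 10 length bins. The bin medians fall from 0.68 for the shortest transcripts to -0.28, and Bglap and Bglap2 lie at the short end. Smpd3 and Dmp1 lie below the shaded band, and Spp1 and Nes lie above it.

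Genes that act on or beside these proteins were counted in lists, where a gene counts as lower or higher by the study's threshold. The lists were chosen with earlier results of these data known, so their counts beside those of all genes are descriptions. Over all genes tested, 8.92% were lower and 10.9% were higher by it. A list of proteases, kinases and their partners that process phosphoproteins or collagen held 5 lower genes of 13 tested and none higher. The 5 were Fam20a, Fam20c, Furin, Mmp2 and Pcolce, the last an enhancer of procollagen processing and not an enzyme. The median was -0.64 beside -0.04 for all genes, or -0.22 with the correction for length and GC. The gene at that median of -0.64 was Mmp20, a protease that also counts among the ameloblast genes above. Fam20c, the kinase that phosphorylates the SIBLING proteins in the Golgi, read 95.6, 136 and 142 in controls and 61.5, 49.2 and 79.7 in mutants (log2 fold change -0.97, SE 0.27, adjusted p = 0.078). Fam20a, its pseudokinase partner with an essential role in enamel, read 104, 177 and 166 against 68.3, 64.2 and 53.1 (-1.27, SE 0.27, adjusted p = 0.046). In both genes all mutant samples lay below all controls. Over all genes tested, 16.3% had all mutants below all controls and 14.1% had them above. Genes named from the lists were picked by smallest p, so groups without overlap are no further support, here or below. With that correction, 3 of the 13 were lower, with Fam20c at -0.09 and Fam20a at -0.80, and leaving out any 1 of the 6 samples left 4 or 5 lower.

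Matrix genes beyond the members gave 2 lower, Col1a2 and Col5a1, and 1 higher, Omd, of 19 tested, with a median of -0.47. These counts stand near the 8.92% lower and 10.9% higher of all genes tested. Col1a2, a chain of type I collagen, read 3921, 9057 and 4602 in controls and 2731, 2455 and 2878 in mutants (-1.12, SE 0.43, adjusted p = 0.190). Omd, osteomodulin, a keratan sulphate proteoglycan of mineralized tissue, read 38.2, 28.4 and 26.6 against 191, 116 and 154 (2.31, SE 0.28, adjusted p = 0.0066). All 3 mutants lay above all controls for Omd and below them for Col1a2. Of 20 matrix genes tested when control 3 or a mutant was left out, 4 were lower without control 3, 1 without mutant 1 or mutant 2, and 0 without mutant 3. Of the 19, 1 was lower without control 2 and 6 with total counts alone. Omd was higher in each of these fits, at 2.11 to 2.48 leaving out single samples. The correction for length and GC put Col1a2 at -0.40 and Col5a1 at -0.27, both under 1.5-fold, and Omd at 1.19. With it, 2 other genes of the list were lower, and Omd was the 1 that was higher. Col1a2 also lost its call without any 1 of the mutants, and Col5a1 without control 2, mutant 2 or mutant 3.

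Of 17 genes of mineral transport and phosphate release tested, 5 were lower (Ank, Slc20a2, Stim1, Anxa6 and Slc24a3) and none higher, with a median of -0.29. Slc24a3, a sodium, calcium and potassium exchanger, read 63.3, 80.6 and 111 in controls and 9.60, 20.5 and 27.9 in mutants (-2.12, SE 0.41, adjusted p = 0.042). Stim1, the calcium sensor of the endoplasmic reticulum, read 125, 165 and 135 against 94.9, 62.4 and 81.6 (-0.83, SE 0.25, adjusted p = 0.094). With TMM scaling or with total counts alone, 7 were lower, and with the correction for length and GC, 2, with Slc24a3 at -1.62 and Stim1 at -0.25, under 1.5-fold. Leaving out single samples gave 4 to 7 lower.

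Around Smpd3, 5 of 16 genes of sphingomyelin and ceramide metabolism were lower (Smpd1, Sgms2, Sphk2, Sgpl1 and Cers2) and none higher, and the list's median was -0.08. Smpd1, the acid sphingomyelinase of lysosomes, read 172, 158 and 219 in controls and 105, 79.9 and 98.1 in mutants (-0.96, SE 0.24, adjusted p = 0.052). Sgpl1, which degrades sphingosine 1-phosphate, read 78.6, 92.7 and 93.2 against 60.5, 50.2 and 37.7 (-0.84, SE 0.25, adjusted p = 0.093). Neither gene overlapped between groups, and with the correction for length and GC 3 of the 16 were lower and 1 was higher, with Smpd1 at -0.64 and Sgpl1 at -0.56, under 1.5-fold. Without control 3, 2 of the 16 were lower, and without control 1, 3.

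Transcription factors of odontoblast and osteoblast differentiation gave 2 lower, Klf4 and Nfic, and 1 higher, Dlx6, of 17. These counts too stand near the 8.92% lower and 10.9% higher of all genes tested. Klf4 read 49.1, 67.7 and 93.0 in controls and 33.4, 29.9 and 33.4 in mutants (-1.12, SE 0.29, adjusted p = 0.060), and Nfic, needed for root odontoblasts, read 161, 253 and 197 against 128, 150.4 and 113 (-0.64, SE 0.25, adjusted p = 0.205). Dlx6 read 18.2, 19.5 and 14.2 against 63.1, 33.0 and 30.0 (1.28, SE 0.38, adjusted p = 0.092). Samples of the 3 genes did not overlap between groups, and the correction for length and GC put Klf4 at -0.71, Dlx6 at 1.21 and Nfic at 0.11. With it, 1 of the 17 was lower and 3 were higher. Without control 2 or without control 3, 1 of the 17 was lower, and Nfic lost its call there and without mutant 1 or mutant 3.

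The remaining lists held few calls, near or under the 8.92% lower and 10.9% higher of all genes tested. Of 13 integrins and matrix receptors, which bind the RGD sequence of Ibsp and Spp1 or collagen, 1 was lower, Itgb5, at 143, 214 and 214 in controls and 79.0, 102 and 136 in mutants (-0.85, SE 0.29, adjusted p = 0.136), and 0 to 3 were lower leaving out single samples. Itgb5 lost its call without control 3, mutant 1 or mutant 2, and with the correction for length and GC it was at -0.29, under 1.5-fold, while 2 of the 13 were lower. With total counts alone, 3 were lower. Of 9 genes of the FGF23 and phosphate axis that Phex and Dmp1 act on, the targeted Fgfr1 was the 1 that was lower. None of the 5 genes of the vitamin K cycle that carboxylates osteocalcin, and none of 9 intermediate filament and partner genes tested beside Nes, passed in either direction. With the correction for length and GC, 1 of the 5 was lower and 2 of the 9 were higher. Without mutant 3, 2 of the 10 intermediate filament and partner genes then tested were lower.

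The genes whose levels ran closest to Dspp over the 6 samples (Pearson r of log2 of scaled CPM plus 1, among genes tested with a mean of at least 10) were Dlc1 (r = 0.991), Numbl (0.987), Pcsk5 (0.969), Prkca (0.966) and Magi2 (0.966). Each was highest in control 2 and lowest in control 3. Among the 9 genes themselves, Phex (0.884) and Nes (0.857) ran with Dspp, and Dmp1 (0.345), Ibsp (0.395), Spp1 (0.277), Bglap2 (0.228), Bglap (0.084) and Smpd3 (-0.139) less so. For Ibsp the closest were Safb2 (0.984), Mapk8ip3 (0.983), Hivep2 (0.983), Cep83 (0.978) and Golga5 (0.973), all highest in mutant 3. Spp1 followed Ibsp at 0.687 and Smpd3 opposed it at -0.660. The 6 points share 2 genotypes and 2 ranges of depth, and the values are descriptions.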

How the data were processed

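RNA from proximal incisors (3 control and 3 mutant samples; single reads of 75 bases) had been trimmed and aligned to mm10; the submitters' processing notes name TopHat2 2.0.8. The authors deposited a filtered table of estimated counts per gene, not normalized. How reads shared by gene copies were assigned, and whether strand was used, is not given in the sources used here. A deposited table of the authors' own comparisons (fold changes and p-values) was not used. Counts were rounded to whole numbers, and 15826 of 19060 genes passed filterByExpr (10 counts, 15 in total), all 9 members included. Mutant was compared with control in edgeR 4.0.16 (R 4.3.3; glmQLFit and glmQLFTest, upper-quartile scaling, unpaired) across all genes, with Benjamini-Hochberg adjustment. Thresholds were an unadjusted p under 0.05 with over 1.5-fold, as in the study, and an adjusted p under 0.05. The fit and the length correction were tested on simulated counts. Exact permutation tests over the 6 samples compared 12 shares and ratios, all with an adjusted p of 1; 3 against 3 cannot go below 0.10. Lengths are from GENCODE M21, where 207 symbols had no match.

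Alternatives were TMM or total-count scaling, DESeq2 1.42.0, limma voom 3.58.1, no filter, a mean of 50 counts or more, the replicate number as a block, leaving out each sample, a spline correction (4 degrees of freedom) for length and GC, and control counts thinned to 9484797. The members and lists were chosen with earlier results of these data known. Named were the 9 members, Mepe, Bglap3, Fgfr1, the 5 genes closest to Dspp and to Ibsp, up to 2 higher and 2 lower genes of each list by smallest p, and the first 3 markers of a cell type beside a member's result. The other called genes of short counts were chosen after their values were seen. So were the markers Mylpf, Oscar, Calcr, Odam, Amtn, Hbb-bs, Hba-a1, Hba-a2, Emcn, Cldn5 and Epcam. The markers Alpl, Sp7, Runx2, Dkk1, Sost, Ocstamp, Dcstamp, Atp6v0d2 and Mmp20 were added in the same way.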

Additional observations from a re-analysis of the deposited data

How the results depend on the processing

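Over 15 alternatives the differences of the 9 genes kept their direction in 123 of 135 values, and Dmp1, Smpd3 and Nes kept it in all. No gene reached an adjusted p under 0.05 in any alternative. The count of genes lower at the study's threshold, 1 in the reported fit, was 2 with total counts only (Dmp1 added, at -1.04), 2 with the length and GC correction (Bglap and Bglap2, without Smpd3), and 0 to 2 leaving out single samples (0 without control 3 or without mutant 3, 2 without control 1). The count higher, 0 in the reported fit, was 1 with the length and GC correction (Nes) and 0 to 1 leaving out single samples (1 without control 2, Spp1). Total-count scaling moved the median of all genes to -0.30, TMM to -0.13 and limma voom to -0.29, and total counts put Bglap at -0.011 and Bglap2 at -0.022. The length and GC correction reversed Bglap (-1.09), Bglap2 (-1.05), Ibsp (-0.0024) and Spp1 (-0.27). Phex reversed to 0.11 with limma voom and to 0.11 with the replicate block. Leaving out single samples, Dspp ranged from -0.75 to 0.60, Phex from -0.35 to 0.55, Bglap2 from -0.070 to 0.45 and the Bglap share difference from -1.52 to 2.44 percentage points. The cause of these changes was not tested. Same-numbered samples did not deviate together (correlations 0.047, 0.0094 and 0.055). This check covered 1 matching of the samples and cannot exclude a pairing. The paper's methods mention 3 pairs of samples without naming which belong together. With the replicate number as a block, 1 member was lower, none higher, and 508 genes rather than 1074 had an adjusted p under 0.05. The depth of 5276557 counts in mutant 1 limits low genes such as Mepe most.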
